A study of Homo sapiens with 4 samples.

Results

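The genes described here are the core of the Notch pathway on these arrays: the ligand-directed ubiquitin ligases NEURL1B and MIB1, the ligands JAG1, JAG2 and DLL1, the receptors NOTCH1, NOTCH2 and NOTCH3, and the nuclear coactivators MAML1 and MAML2. Their members are 30 probe sets of 10 genes, of 49293 probe sets of 18132 named genes in all, taken because the platform annotation gives each exactly 1 gene symbol and that symbol is on the list. NEURL1B was chosen by its measured rise in this same comparison, so its intensities are described without a test. The mimic group was SCC-9, an established line of human tongue squamous carcinoma, given a miR-585-5p mimic at 30 nM and measured on 2 arrays. The miR-NC group was the same line given the control miR-NC by the same protocol, also on 2 arrays. All cells were transfected 24 hours after seeding and collected 36 hours later.

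Notch receptors are cell-surface proteins that are activated by ligands on a neighbouring cell. The ligand is ubiquitinated by a Neuralized or Mind bomb ligase, is pulled into its own cell by endocytosis, and so exposes the receptor to cleavage by an ADAM protease and then by gamma-secretase. The freed intracellular part enters the nucleus, binds the DNA-binding protein RBPJ together with a Mastermind coactivator, and switches on genes such as those of the HES and HEY repressor families. In squamous epithelium the pathway is known for driving cells out of the basal layer into differentiation.

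The supplied microRNA is shown because its seed, in capitals, is the part by which a microRNA pairs with its targets; its sequence is that of RefSeq (GRCh38.p14 chr5:169263649-169263670, minus strand).
hsa-miR-585-5p: cUAGCACAcagauacgcccaga
None of the other human mature sequences among the 2545 in the same table shares this seed of bases 2 to 8, counted from the 5′ end.

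The values are deposited probe set intensities on a linear scale, with array medians of 30.6 to 31.3, and changes are differences of their log2, mimic minus miR-NC, tested with limma and adjusted by Benjamini-Hochberg over 34505 probe sets. Arrays of a group correlated at 0.998 (mimic) and 0.997 (miR-NC) over probe sets. Whether the 2 arrays of a group hold separate cultures is not in the labels, and the spread that p-values rest on may be technical. The brightest of 20 control probe sets with no human target read 14.2 to 16.8 across the arrays and marks background. Keratins KRT5 and KRT14, which mark basal squamous epithelium, read at least 2492 on every array, and the epithelial genes CDH1 and EPCAM at least 704. All 4 differed between the groups and not in one direction: the log2 change was -1.26 for CDH1, 0.97 for KRT14, 0.59 for EPCAM and 0.24 for KRT5 (limma adjusted p at most 2.58e-04), and their part in the results was not tested. By contrast PTPRC, the pan-leukocyte marker, read at most 3.94 and CDH5, of endothelium, at most 13.4. Of 9 markers of leukocytes, endothelium, fibroblasts and muscle, 4 were above background on all arrays and 1 passed the test: CD14, a monocyte marker, read 103 and 86.3 on the mimic arrays, against 54.9 and 63.3 on the miR-NC arrays, and its part in the results was not tested. A change of the whole culture cannot be told apart from one in a fraction of its cells, since RNA was pooled over cells.

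NEURL1B, which encodes a Neuralized-type ubiquitin ligase acting on Notch ligands (GRCh38.p14 chr5:172641263-172691540), was bright on the mimic arrays and at background on the miR-NC arrays. Its only probe set, 11718464_s_at, read 114 and 111 on the mimic arrays, against 6.69 and 6.83 on the miR-NC arrays. It was thus about as dim as the controls without a human target in the miR-NC cells and well above them on both mimic arrays. The apparent log2 difference of the deposited values was 4.06. Because the miR-NC level was not above background, the rise is given as at least 7.30-fold, the mimic mean over the brightest no-target control of each miR-NC array. The name of the probe set is of the type Affymetrix gives to sets whose probes can match several transcripts, and NEURL1B had no second probe set to set beside it. With a pseudocount of 16 added before the log, the difference was 2.50. The gene of the microRNA, MIR585, lies 3.38 Mb from NEURL1B on the same chromosome.

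**Figure D1:**
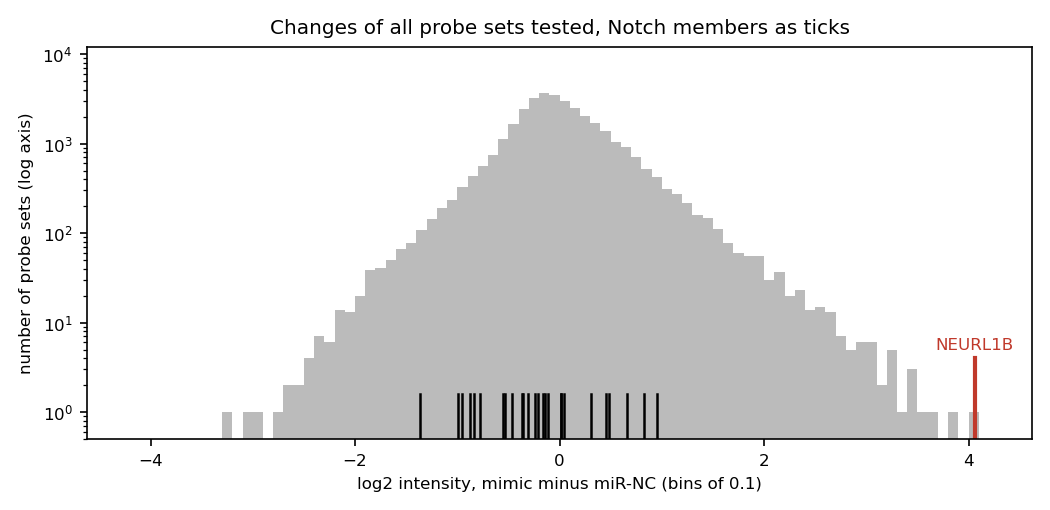
Number of probe sets (log axis) by log2 change, mimic minus miR-NC, in bins of 0.1 over the 34505 probe sets tested; ticks at the bottom mark the Notch member probe sets, and their height has no meaning. NEURL1B is drawn at its apparent difference of 4.06, taken against miR-NC readings at background (at least 7.30-fold), and the other member ticks lie between -1.37 and 0.96.

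By a likeness rule, the smallest Euclidean distance between log2 profiles over the 4 arrays, each centred on its own mean, 3 probe sets of 31727 with 1 symbol were closest to NEURL1B. They belong to CCNA2, encoding cyclin A2, at a distance of 0.42, the mitotic kinase gene NEK2 at 0.44 and the mitotic kinesin gene KIF14 at 0.58. NEURL1B, chosen for its rise, had the largest apparent rise of all probe sets tested. The rule thus returned the next largest apparent rises, log2 3.65 for CCNA2, 3.81 for NEK2 and 3.53 for KIF14. A particular likeness to mitotic genes was not tested. The CCNA2 and NEK2 probe sets are not the brightest of their genes. The CCNA2 probe set read 194 and 197 on the mimic arrays, against 14.8 and 16.5 on the miR-NC arrays. The likeness rests on 4 arrays and mostly on the difference between the groups, and for NEURL1B, NEK2 and KIF14 the miR-NC readings were not above background on either array, so the distances are those of the deposited values and their order is not firm.

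Over the 9 other genes, 26 of 29 probe sets were bright enough to be tested (mean intensity above 12.2, the 30th percentile). Of these, 5 were higher and 11 lower in mimic cells at an adjusted p under 0.05, and 10 did not pass. Over the whole array 51.0% of the probe sets passed, 27.1% higher and 23.9% lower, so that a change by itself does not set these genes apart. The median log2 change of the 26 was -0.23, against -0.04 for all probe sets tested. In 21 of the 26 the 2 mimic arrays lay on one side of both miR-NC arrays, as did 76.8% of all probe sets. Without mimic replicate 2 the count of calls was 8 in place of 16, with 3 higher and 5 lower, and without mimic replicate 1, 3 were higher.

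The balance of directions rests on how the arrays are scaled. On the mimic arrays the poly(A) control spikes read 0.35 higher (mean log2 difference) than on the miR-NC arrays. When arrays were scaled to these spikes, the median of all probe sets was -0.39, with 3935 higher and 19483 lower calls. The share of calls that were higher was then 16.8%, against 53.1% as deposited, and 3 member probe sets were higher and 17 lower. The other scalings did not show this fall. Scaled to the hybridization spikes, the share was 60.3%, with 10228 higher and 6721 lower calls, and 5 member probe sets were higher and 9 lower. It was 53.9% with a shared median and 50.3% with a second quantile normalization. Below, the spike scale is that of the poly(A) spikes. Unless it or another setting is named, changes are those of the deposited values.

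**Figure D2:**
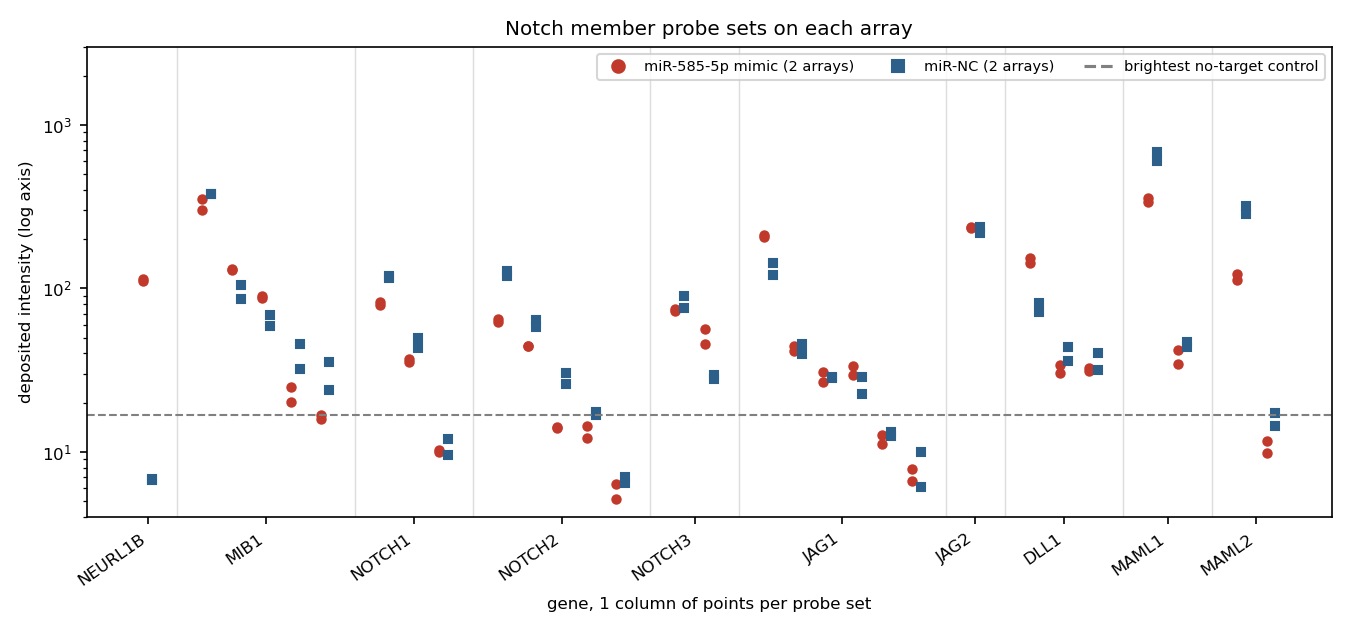
Deposited intensity (log axis) of every Notch member probe set on each array, with mimic arrays as red circles, miR-NC arrays as blue squares, and the dashed line at the brightest no-target control (16.8). NEURL1B is the only gene with mimic points near 112 and miR-NC points near 6.76, and the probe sets of MIB1 lie on either side of their controls.

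MIB1, the Mind bomb ligase that ubiquitinates Notch ligands in most tissues (chr18:21704916-21870953), gave opposite readings from different probe sets. The brightest, 11726641_at, read 352 and 304 on the mimic arrays, against 377 and 379 on the miR-NC arrays. It was lower by a narrow margin, with a log2 change of -0.21 ± 0.08 (SE, n = 2 per group, limma adjusted p = 0.0473), and this call ended without mimic replicate 2 (-0.10), without either control array, with the hybridization spikes (-0.16), with a shared median (-0.20), with no filter on dim probe sets and with no mean-variance trend. The second in brightness, 11726637_at, read 131 and 130.3 on the mimic arrays, against 86.7 and 104.7 on the miR-NC arrays. It rose by 0.46 ± 0.11 and another, 11726638_at, by 0.48 ± 0.11 (limma adjusted p = 0.00329 and 0.00310), but both were near 0 on the spike scale (0.11 and 0.14) and neither passed without mimic replicate 1 or 2. The dimmest pair, 11726640_x_at and 11726639_at, changed by -0.77 ± 0.18 and -0.83 ± 0.18 (limma adjusted p = 0.00321 and 0.00207), and neither passed without mimic replicate 2. The last of these read 16.8 and 15.96 on the mimic arrays, close to background, against 23.9 and 35.6 on the miR-NC arrays. The mean over the 5 probe sets was -0.18 and did not pass.

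Of the ligands, DLL1 and JAG1 each had 1 probe set that rose, and the single JAG2 probe set did not pass the test. DLL1, a Delta-type transmembrane ligand (chr6:170282206-170291078), read 153 and 143 on the mimic arrays with its brightest probe set, 11724938_at, against 81.2 and 71.3 on the miR-NC arrays. The groups were clearly apart, and the rise was 1.94-fold (log2 0.96 ± 0.10, limma adjusted p = 8.18e-06). It was 0.61 on the spike scale. The remaining DLL1 probe sets, both above background, leaned the other way without passing: 11760768_at read 33.9 and 30.2 on the mimic arrays, against 43.6 and 35.7 on the miR-NC arrays (-0.30 ± 0.14, limma adjusted p = 0.0863), and 11724937_a_at was at -0.16 ± 0.14. On the spike scale both passed as lower (-0.65 and -0.51), so the direction of DLL1 depends on which probe set is read. Averaged over its probe sets, DLL1 did not pass as higher.

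JAG1, a Jagged-type ligand (chr20:10637684-10673999), had the most probe sets of any member, 6. The brightest, 11720825_s_at, read 211 and 206 on the mimic arrays, against 120.5 and 144 on the miR-NC arrays. It was 1.58-fold higher (log2 0.66 ± 0.10, limma adjusted p = 1.14e-04) and 0.32 higher on the spike scale. None of the 4 others tested passed. Among them 11720823_at read 29.6 and 33.7 on the mimic arrays, against 22.7 and 28.6 on the miR-NC arrays (0.31 ± 0.15, limma adjusted p = 0.104), and passed without control replicate 2 (0.48). A pair at 0.02 and 0.01 turned negative on the spike scale (-0.33 and -0.34). The mean of all JAG1 probe sets, 2 of which were not above background on any array, was 0.13 and did not pass. JAG2, the second Jagged ligand (chr14:105140995-105168776), read 236 and 235 on the mimic arrays, against 238 and 219 on the miR-NC arrays. Its log2 change was 0.05, with a 95% interval of -0.13 to 0.22, and was -0.30 on the spike scale, where it passed as lower.

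The receptors NOTCH1 and NOTCH2 fell, and NOTCH3 was split between its probe sets. Of 8 tested probe sets of these receptors, 5 were lower and 1 higher in mimic cells, against 23.9% lower and 27.1% higher of all probe sets. The tested probe sets of NOTCH4, a receptor that is not a member, were dim and did not pass. They were at -0.29 ± 0.14 and -0.09 ± 0.16 (limma adjusted p = 0.105 and 0.660). NOTCH1 and NOTCH2, grouped with earlier results known, had 5 lower and 0 higher of 6. Under each of the 5 scalings tried all 6 changes were negative. Without mimic replicate 1 or without mimic replicate 2 the number lower was 3. NOTCH2 (chr1:119911553-120069662) had the largest fall among the receptors. Its brightest probe set, 11732189_at, read 62.1 and 65.2 on the mimic arrays, against 119 and 128 on the miR-NC arrays. That is 1.94-fold lower (log2 -0.96 ± 0.10, limma adjusted p = 6.82e-06), and -1.30 on the spike scale. A second, 11745768_a_at, read 44.2 and 44.4 on the mimic arrays, against 64.3 and 58.0 on the miR-NC arrays, a change of -0.46 ± 0.11 (limma adjusted p = 0.00475) that did not pass without mimic replicate 1 or 2. The third, 11732190_at, read 14.2 and 14.0 on the mimic arrays, where only 1 was above background, against 30.2 and 26.0 on the miR-NC arrays (-0.99 ± 0.14, limma adjusted p = 1.04e-04). The fourth, near background, was at -0.37 ± 0.15 and did not pass (limma adjusted p = 0.0626). The human genome holds NOTCH2NL genes, partial copies of NOTCH2, and 4 further probe sets that carry the NOTCH2 symbol with others were left out. Whether the probe sets used here also detect the copies was not tested.

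NOTCH1, the receptor most often mutated in squamous carcinomas (chr9:136494433-136546048), read 83.0 and 78.9 on the mimic arrays with its brightest probe set, 11718260_at, against 120 and 115 on the miR-NC arrays. It was 1.45-fold lower (log2 -0.54 ± 0.09, limma adjusted p = 4.93e-04). A second probe set, 11718261_at, read 35.3 and 37.2 on the mimic arrays, against 43.2 and 50.02 on the miR-NC arrays, a change of -0.36 ± 0.12 (limma adjusted p = 0.0302). That second call ended with the hybridization spikes (-0.31) and without either mimic array or without control replicate 2. The third was at background on all arrays. The fall of NOTCH1 was smaller than that of NOTCH2 in the brightest probe sets, but the difference between genes was not tested.

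NOTCH3 (chr19:15159038-15200995), which in epithelia can itself be a target of Notch signalling, had 2 probe sets of unlike brightness that did not go together (miR-NC means 82.4 and 28.6). With 11716570_a_at it read 75.3 and 73.1 on the mimic arrays, against 89.4 and 75.4 on the miR-NC arrays, with no call (-0.15 ± 0.11, limma adjusted p = 0.292). With 11716569_at it read 56.4 and 46.0 on the mimic arrays, against 27.8 and 29.5 on the miR-NC arrays, a 1.78-fold rise (log2 0.83 ± 0.13, limma adjusted p = 2.48e-04). The first passed as lower on the spike scale (-0.49) and the second stayed higher there (0.48). The mean over the pair was 0.34 and passed as higher (limma adjusted p = 0.00728).

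**Figure D3:**
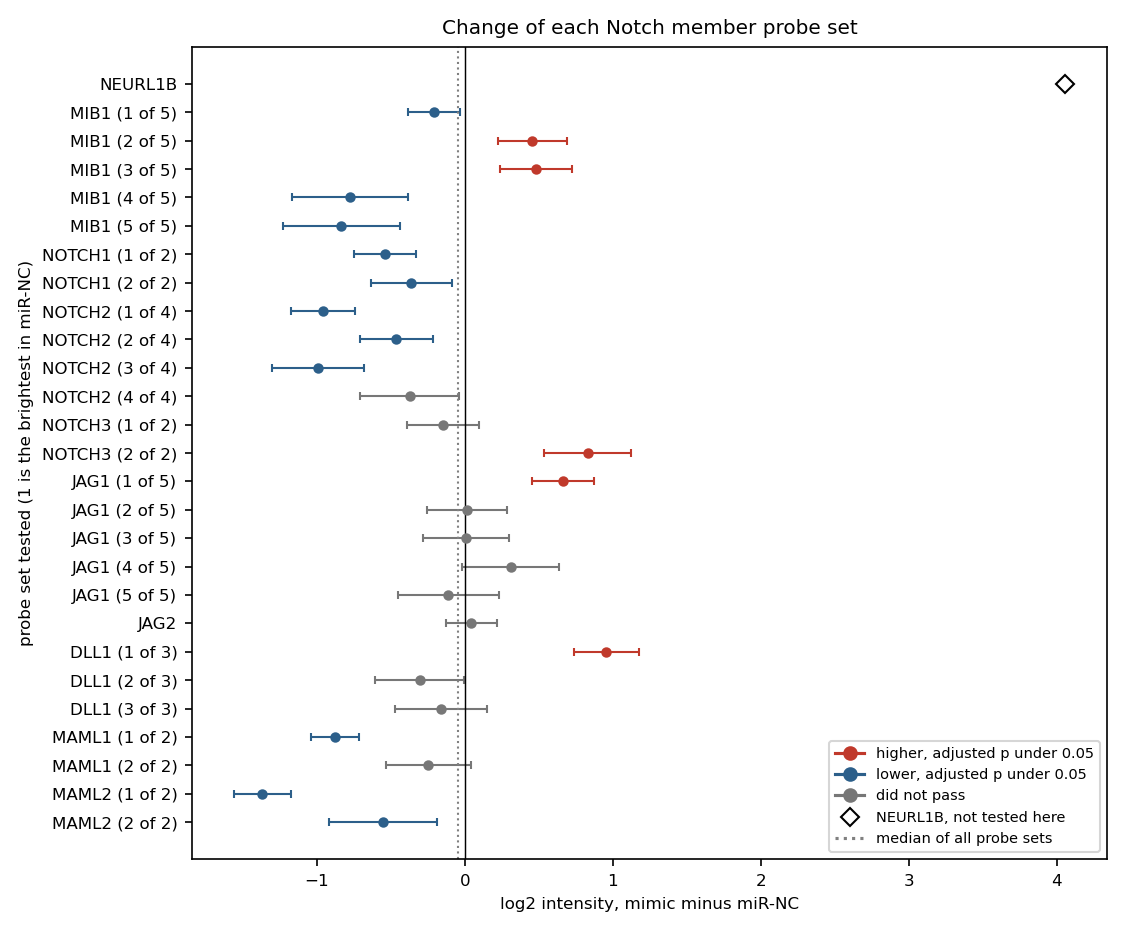
Log2 change, mimic minus miR-NC, of each Notch member probe set tested, with 95% intervals from limma (2 arrays per group); red passed as higher, blue as lower, grey did not pass, the open diamond is the apparent difference of NEURL1B, without interval, and the dotted line is the median of all probe sets (-0.04). Every NOTCH1, NOTCH2, MAML1 and MAML2 point lies left of 0, while MIB1, NOTCH3 and DLL1 have points on both sides.

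The Mastermind coactivators MAML1 and MAML2 fell. MAML3, of the same family, did not pass with its brightest probe set (-0.40 ± 0.18, limma adjusted p = 0.0847). MAML1 and MAML2 encode proteins that bridge the cleaved receptor and RBPJ to histone acetyltransferases, and 3 of their 4 probe sets were lower, against 23.9% of all probe sets, the fourth being negative without a call. Leaving out probe sets whose name type allows cross-hybridization, which drops the brighter MAML1 set, left 2 lower, as did leaving out mimic replicate 2 or control replicate 1. MAML2 (chr11:95976598-96343195) read 122 and 113 on the mimic arrays with 11759346_a_at, against 322 and 286 on the miR-NC arrays. The groups were far apart, and at 2.58-fold lower (log2 -1.37 ± 0.09, limma adjusted p = 1.65e-07) this was the largest fall among the members. Its other probe set, 11740258_a_at, read 11.7 and 9.82 on the mimic arrays, neither above background, against 17.2 and 14.4 on the miR-NC arrays. The apparent difference of its deposited values passed as lower (log2 -0.55 ± 0.17, limma adjusted p = 0.0156), but not without mimic replicate 2 or control replicate 1. Taken against background, the fall was at least 1.08-fold, and this bound was not tested. MAML1 (chr5:179732822-179777283) read 356 and 340.0 on the mimic arrays with 11757559_s_at, against 600.5 and 680.2 on the miR-NC arrays, 1.84-fold lower (log2 -0.88 ± 0.07, limma adjusted p = 1.40e-06). Its dimmer probe set, 11746709_at, read 42.0 and 34.7 on the mimic arrays, against 47.0 and 43.6 on the miR-NC arrays (-0.24 ± 0.13, limma adjusted p = 0.140).

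Around these members, 45 other genes of the pathway were measured, each read from its brightest probe set. Of the 43 tested, 14 were higher and 13 lower. Over all genes so read 54.6% passed, 28.0% higher and 26.6% lower, and of the 9 members besides NEURL1B 2 were higher and 5 lower. The median log2 change of the 43 was -0.09, against -0.06 for all genes. On the spike scale 3 were higher and 26 lower, without mimic replicate 2 the counts were 9 and 8, and without mimic replicate 1, 9 were higher. Among relatives of the members, MIB2, a second Mind bomb ligase, read 218 and 193 on the mimic arrays, against 302 and 305 on the miR-NC arrays (-0.56 ± 0.08), while NEURL1, the paralogue of NEURL1B, read 97.7 and 101 on the mimic arrays, against 102 and 109 on the miR-NC arrays (-0.09 ± 0.09, limma adjusted p = 0.462), and 1 of its 3 other tested probe sets fell. The Delta-type ligand DLL3 was at 0.63 ± 0.10 (0.29 without a call on the spike scale), though 1 of its 2 other probe sets fell, and the non-canonical ligand DLK2 was at -0.67 ± 0.07.

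Enzymes that modify the receptor moved both ways. POFUT1, which adds O-fucose to Notch, read 61.6 and 71.9 on the mimic arrays, against 149 and 147 on the miR-NC arrays (-1.16 ± 0.10, limma adjusted p = 2.08e-06), though its 1 other tested probe set did not pass. POGLUT1, which adds O-glucose, read 242 and 225 on the mimic arrays, against 108 and 132 on the miR-NC arrays (0.97 ± 0.10, limma adjusted p = 8.40e-06), and both its other tested probe sets rose. Of 8 genes of receptor cleavage 1 rose and 2 fell, among them the protease ADAM10 (0.55 ± 0.12, and 0.20 without a call on the spike scale) and FURIN (-0.36 ± 0.10). In the nucleus RBPJ rose by 0.47 ± 0.06 with its brightest probe set (0.12 without a call on the spike scale). All 3 of its other tested probe sets rose, by 1.22 ± 0.08, 1.06 ± 0.15 and 0.60 ± 0.15. The spike-scale value is given for the brightest only. The acetyltransferase CREBBP read 157 and 163 on the mimic arrays, against 332 and 304 on the miR-NC arrays (-0.99 ± 0.08, limma adjusted p = 9.43e-07), and all 3 of its other tested probe sets fell. Of the corepressors KDM5A was at 0.70 ± 0.06 and SPEN at -0.37 ± 0.09, and of the genes of receptor turnover the ubiquitin ligase ITCH was at 0.74 ± 0.08 and the kinase AAK1 at -1.36 ± 0.09. Of the 3 other tested ITCH probe sets 2 rose and 1 fell (-0.69), and of the 2 of AAK1 1 fell.

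**Figure D4:**
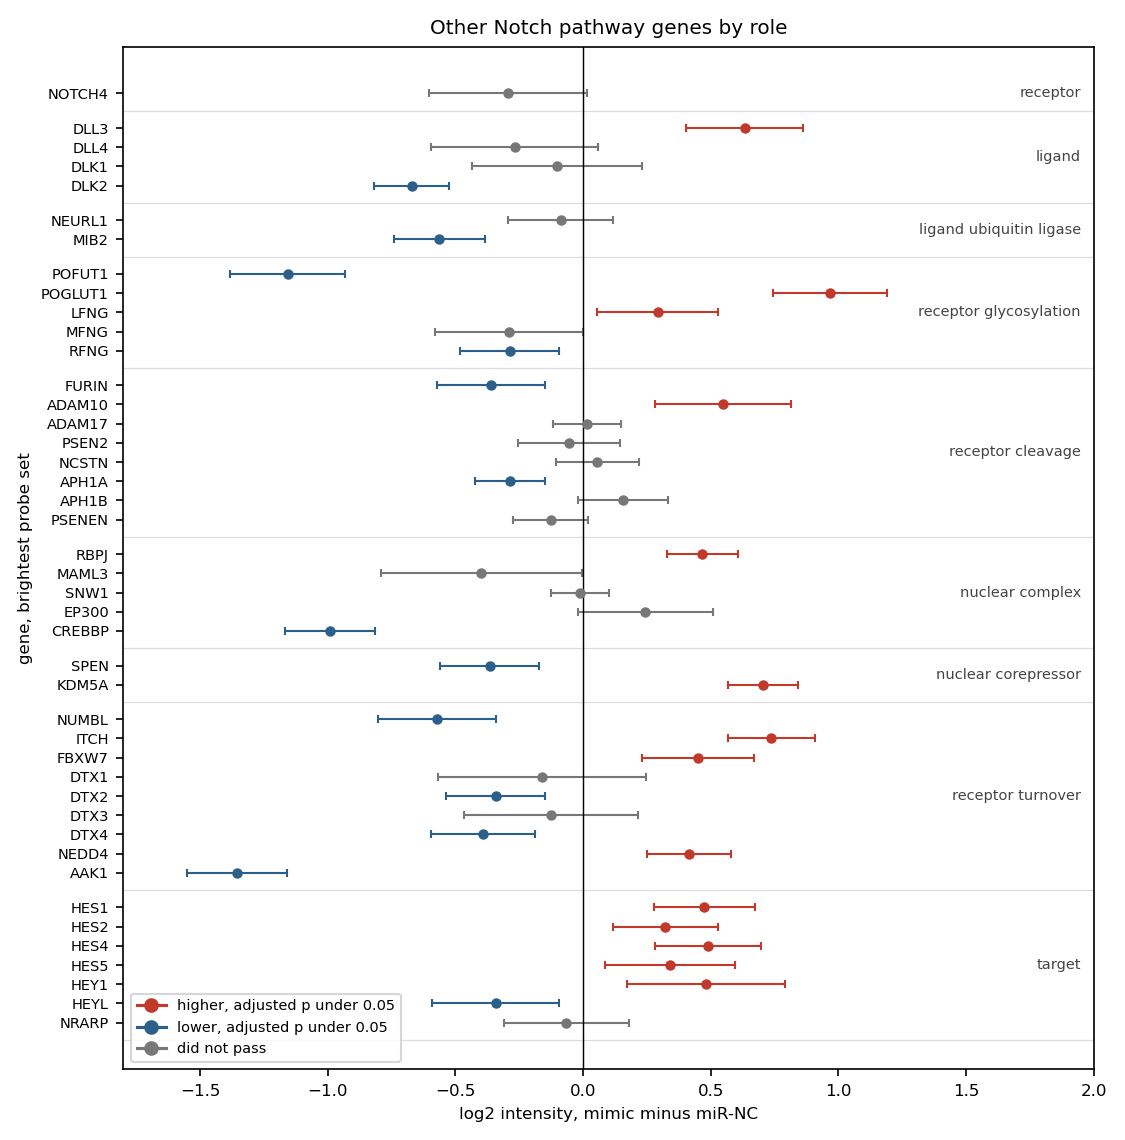
Log2 change, mimic minus miR-NC, of the 43 other Notch pathway genes tested, by role, each from its brightest probe set with its 95% interval from limma (2 arrays per group); red passed as higher, blue as lower, grey did not pass. Calls of both directions occur in most roles, and the HES genes and HEY1 lie on the right.

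Genes of the HES and HEY families and NRARP were listed as transcriptional targets of Notch. Whether each of them responds to Notch in these cells was not tested. Of the 7 bright enough for the test, 5 were higher and 1 lower, against 28.0% higher and 26.6% lower of all genes read the same way. HES1, the classical target, read 155 and 153 on the mimic arrays, against 106 and 116 on the miR-NC arrays, a rise of 0.47 ± 0.09 (limma adjusted p = 8.72e-04). A second HES1 probe set rose as well, and 3 others did not pass. HES4 read 181 and 160.4 on the mimic arrays, against 126 and 117 on the miR-NC arrays (0.49 ± 0.09, limma adjusted p = 9.77e-04). HEY1 read 22.4 and 22.3 on the mimic arrays, against 16.8 and 15.2 on the miR-NC arrays, close to background (0.48 ± 0.14, limma adjusted p = 0.0131). HES2 and HES5, named after their values were seen, rose by 0.32 ± 0.09 and 0.34 ± 0.12. The other tested HES2 probe set was at 0.04 ± 0.15 without a call. HEYL, likewise named after its value was seen, was at -0.34 ± 0.11 with its brightest probe set. The 2 other tested HEYL probe sets were at -0.03 and -0.01 without a call, and the HEYL call ended with the hybridization spikes, on averaging its probe sets, and without mimic replicate 2 or control replicate 1. NRARP, a feedback inhibitor and direct target, read 66.4 and 62.4 on the mimic arrays, against 72.0 and 63.1 on the miR-NC arrays (-0.07 ± 0.11, limma adjusted p = 0.647). On the spike scale 0 of these genes were higher and 2 lower, namely HEYL and NRARP. HES2 and HES5 were at -0.024 and -0.0064 there, and HES1 and HES4 at 0.13 and 0.14, none with a call. The number higher was 2 without mimic replicate 1 and 3 without mimic replicate 2 or control replicate 1, and averaging a gene over its probe sets left 2 higher and 0 lower.

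**Figure D5:**
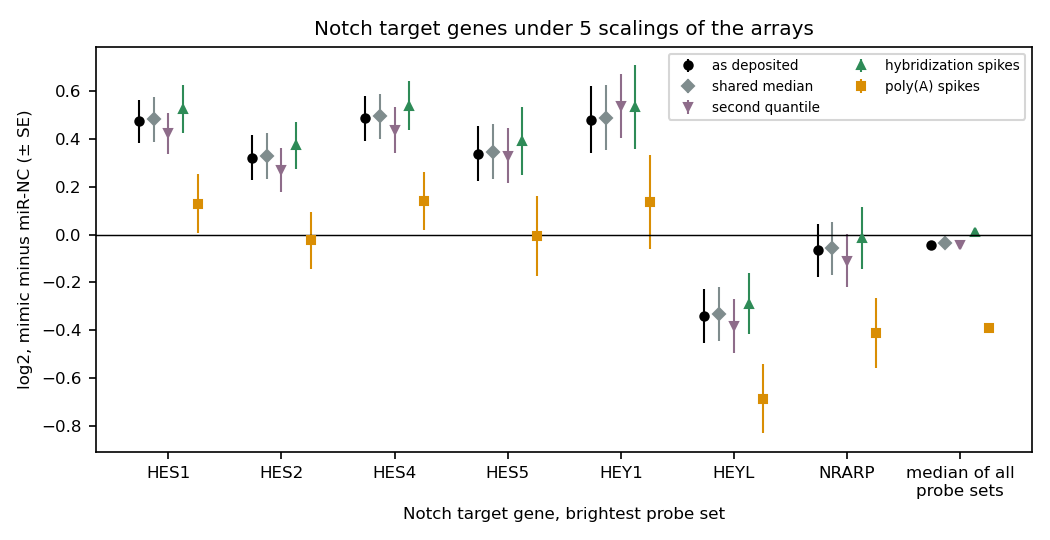
Log2 change, mimic minus miR-NC, with SE (2 arrays per group) of the Notch target genes under 5 scalings of the arrays, beside the median of all probe sets under each. The poly(A) spike scaling (orange squares) lowers every gene and the median together, so that HES2 and HES5 reach -0.024 and -0.0064 while the median reaches -0.39.

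RBPJ binds DNA at sites that include the letters GTGGGAA, so the promoter windows of RefSeq (GRCh38.p14, 250 bases before to 50 after the gene start) were searched for this motif on both strands. It was in 6.25% of all 35116 windows. Of the members 9 had a window, and 0 of these held the motif. Of the 7 target genes with a window, HES1, HES4, HES5, HEY2 and HEYL held it. HEY1 is not among these 7, and HEY2, at background on all arrays, was not tested for a change. The windows of NEURL1B, which holds no motif, and of 4 of these targets are shown, motif in capitals (TTCCCAC where it is on the other strand), so that targets with and without a rise can be set beside it.
NEURL1B (GRCh38.p14 chr5:172641013-172641312, plus strand): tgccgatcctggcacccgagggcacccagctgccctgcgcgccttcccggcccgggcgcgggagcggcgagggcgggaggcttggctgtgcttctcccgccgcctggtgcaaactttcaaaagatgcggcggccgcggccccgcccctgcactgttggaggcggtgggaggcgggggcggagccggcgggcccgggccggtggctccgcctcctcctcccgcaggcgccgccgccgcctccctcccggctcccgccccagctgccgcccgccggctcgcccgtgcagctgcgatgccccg
HES1 (GRCh38.p14 chr3:194135898-194136197, plus strand): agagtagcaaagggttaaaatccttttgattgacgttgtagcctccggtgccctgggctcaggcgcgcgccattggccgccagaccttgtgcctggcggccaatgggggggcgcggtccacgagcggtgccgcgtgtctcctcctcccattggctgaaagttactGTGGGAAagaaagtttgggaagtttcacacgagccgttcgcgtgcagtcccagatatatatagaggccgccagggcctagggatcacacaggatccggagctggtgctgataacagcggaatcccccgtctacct
HES4 (GRCh38.p14 chr1:1000048-1000347, minus strand): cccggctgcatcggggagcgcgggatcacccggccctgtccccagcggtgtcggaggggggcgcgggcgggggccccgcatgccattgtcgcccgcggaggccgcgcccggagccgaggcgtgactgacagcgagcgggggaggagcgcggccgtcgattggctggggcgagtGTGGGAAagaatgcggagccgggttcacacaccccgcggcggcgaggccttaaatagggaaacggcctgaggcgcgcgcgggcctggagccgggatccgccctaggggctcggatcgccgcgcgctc
HES5 (GRCh38.p14 chr1:2530214-2530513, minus strand): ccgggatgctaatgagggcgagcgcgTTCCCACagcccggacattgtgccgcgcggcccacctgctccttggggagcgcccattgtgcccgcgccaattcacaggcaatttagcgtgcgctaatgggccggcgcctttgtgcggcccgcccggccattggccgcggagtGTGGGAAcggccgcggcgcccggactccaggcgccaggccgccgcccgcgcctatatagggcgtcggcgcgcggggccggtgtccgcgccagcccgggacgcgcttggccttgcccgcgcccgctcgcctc
HEYL (GRCh38.p14 chr1:39639594-39639893, minus strand): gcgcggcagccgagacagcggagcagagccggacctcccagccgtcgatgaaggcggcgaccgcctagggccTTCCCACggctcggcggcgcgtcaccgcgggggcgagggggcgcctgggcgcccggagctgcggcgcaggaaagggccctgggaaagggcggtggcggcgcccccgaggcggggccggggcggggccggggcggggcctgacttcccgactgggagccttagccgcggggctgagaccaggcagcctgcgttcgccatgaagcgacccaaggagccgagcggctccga
The motif starts 85 bases before the start of HES1 and 77 before that of HES4, and HES5 holds it at 224 and 81 bases. HEYL holds it at 178 bases. A match is a string of letters and not a measured binding site.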

How the data were processed

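Total RNA of 4 SCC-9 samples was hybridised to Affymetrix PrimeView arrays, labelled with biotin from 2 ug of RNA per the labels' protocols. The deposited intensity values are probe set summaries made with RMA, per the submitters' processing notes (background correction, normalization between arrays, summary per probe set); no version is given in the sources used here. They run from 2.09 to 17329 and were read as linear, and log2 was taken. Groups came from the sample titles. Probe sets were named from the platform annotation (44988 with 1 symbol, 1832 with several, 2473 with none here); 102 controls were left out. Probe sets with a mean above the 30th percentile (12.2) were fitted with limma 3.58.1 in R 4.3.3 (eBayes with a mean-variance trend, 2 residual and 9.55 prior degrees of freedom), two-sided, with a threshold of 0.05. The script was tested on simulated data. Fold bounds use the no-target controls. Members, lists, tests and alternatives were chosen with earlier results of these data known. All member probe sets are given. Of other pathway genes, up to 2 per role with the largest change past the threshold are named, with HES1, HEY1 and NRARP. NEURL1, NOTCH4, MAML3, HES2, HES5 and HEYL were added outside this rule. Alternatives varied scaling, filter, spread, unit of the test, log scale, replicate block and arrays. The number of arrays limits the precision.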

Additional observations from a re-analysis of the deposited data

How the results depend on the processing

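The 6 NOTCH1 and NOTCH2 and 4 MAML1 and MAML2 probe sets tested kept a negative change in each of the 18 alternatives that gave them a value, and the apparent difference of NEURL1B ranged from 2.50 to 4.11 (log2). The spike scaling gave 3935 higher and 19483 lower probe sets, 1651 higher and 8365 lower genes read from the brightest probe set, 3 higher and 17 lower member probe sets, 3 higher and 26 lower pathway genes, and 0 higher and 2 lower target genes. It turned JAG1 (-0.33, -0.035 and -0.34 for 3 probe sets), JAG2 (-0.30), HES2 (-0.024) and HES5 (-0.0064). Leaving out cross-hybridizing probe sets, which tests fewer, gave 11544 calls in all, 6001 higher, 1 higher member gene and 1 higher ligand probe set; a filter at the 50th percentile left 7 lower member probe sets. With the mean of all probe sets, 1 member gene was higher, NOTCH3 at 0.34, and neither DLL1 nor JAG1 passed as higher. Of target genes 2 were higher and 0 lower in that setting, and NRARP was at 0.0026. With the hybridization spikes 0 target genes were lower. Leaving out 1 array gave 11233 to 18085 calls in all (6325 to 9647 higher, 4908 to 8438 lower), 2382 to 3911 lower genes, 8 to 16 member probe sets (3 to 6 higher, 5 to 10 lower), 3 to 5 lower NOTCH1 and NOTCH2 probe sets, 17 to 27 pathway genes (9 to 13 higher, 8 to 14 lower), and 2 to 5 higher and 0 to 1 lower target genes. A second quantile normalization put 1 JAG1 probe set at -7.38e-04. Leaving out 1 array also turned the sign of uncalled probe sets of JAG1 (ranges -0.078 to 0.114 and -0.086 to 0.105), JAG2 (-0.016 to 0.106), DLL1 (-0.34 to 0.015) and NRARP (-0.162 to 0.029). Same-numbered arrays deviated with a correlation of 0.07 and share only a number; the replicate block gave 18971 calls in all and 18 member probe sets. Apart from fewer arrays or probe sets in a fit, the cause was not tested. Probe sets near 16.8 have little signal over background.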
